A study of Mus musculus with 18 samples.

Results

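The MHC class II presentation genes examined here were Ciita, Cd74, H2-Aa, H2-Ab1, H2-Eb1, H2-DMa, H2-DMb1, H2-DMb2, H2-Oa and Ifi30, chosen by symbol from the deposited expression tables and not by their values. They are 10 of the 19919 genes listed, and each was measured in all 18 RNA-seq libraries. The study asked how loss of TRIM33, a tripartite motif protein that acts on transcription, alters the progenitors of dendritic cells (DCs) in mouse bone marrow. WT mice were Trim33 fl/fl on the C57BL/6 strain, and KO mice were Trim33 fl/fl Cre-ERT2 on the same strain, in which tamoxifen activates a Cre expressed throughout the body to excise Trim33 exons 2 to 4. Mice of both genotypes were 6 to 8 weeks old, carried the floxed allele and, as the methods describe, were injected with tamoxifen (2 mg daily for 5 days) and analysed 7 days later. Lineage-negative cells were sorted as multipotent progenitors (MPPs; Sca-1+ CD117+ CD34+ FLT3+), CD115- common DC progenitors (CD115- CDPs; CD11c- FLT3+ CD117int CD127-) and common lymphoid progenitors (CLPs; CD11c- CD127+ FLT3+), with 3 libraries per genotype and population. Whether a library came from 1 mouse or from a pool is not given in the sources used here.

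MHC class II molecules display peptides from endocytosed proteins to CD4 T cells and are found mainly on DCs, B cells and macrophages. An α and a β chain assemble in the endoplasmic reticulum around the invariant chain (CD74), cathepsins degrade that chain in the endosome, and H2-DM then exchanges its last fragment for an antigenic peptide under the restraint of H2-DO. CIITA, a coactivator that binds no DNA by itself, switches the whole set on by docking to a complex of RFX, CREB and NF-Y on the X and Y boxes of class II promoters. The progenitors studied here stand upstream of the DC and lymphoid cells in which the pathway is usually read.

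Of the 10 genes, 7 lie together in the MHC on chromosome 17, between the start of H2-Oa (chr17:34092379-34095234) and the end of H2-Eb1 (chr17:34305867-34316674) in GRCm38.p6. The classical chains H2-Ab1 (chr17:34263227-34269418) and H2-Aa (chr17:34282744-34287823) are neighbours in it. Ciita (chr16:10480014-10531064), Ifi30 (chr8:70762773-70766663) and Cd74 lie on other chromosomes. RefSeq promoter windows, from 250 bases before a start site to 50 after it, were at hand for 7 of the 10 genes. They are shown for the 4 genes below because class II promoters are read through the same pair of letter patterns whether or not the genes moved together in these libraries. Each line runs 5′ to 3′ on the strand of the gene, from 140 bases before the start site to 20 after it, and capitals mark ATTGG, the core of the Y box, and ACNGATG, the 3′ part of the X box.
H2-Eb1 (chr17:34305727-34305886, + strand): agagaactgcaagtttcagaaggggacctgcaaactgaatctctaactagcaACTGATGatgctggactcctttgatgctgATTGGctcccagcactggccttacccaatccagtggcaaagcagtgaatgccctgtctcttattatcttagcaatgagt
H2-DMb1 (chr17:34153051-34153210, + strand): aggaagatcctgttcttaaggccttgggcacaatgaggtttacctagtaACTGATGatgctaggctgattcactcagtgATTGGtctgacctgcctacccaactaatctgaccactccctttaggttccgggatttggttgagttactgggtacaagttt
H2-DMb2 (chr17:34145109-34145268, + strand): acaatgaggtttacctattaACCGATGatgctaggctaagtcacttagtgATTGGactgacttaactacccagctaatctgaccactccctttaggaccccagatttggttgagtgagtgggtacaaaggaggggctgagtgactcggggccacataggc
H2-Aa (chr17:34287804-34287963, - strand): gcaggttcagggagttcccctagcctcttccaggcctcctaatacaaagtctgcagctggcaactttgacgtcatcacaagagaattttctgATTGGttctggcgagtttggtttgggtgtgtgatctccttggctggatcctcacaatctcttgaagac
In H2-Eb1, H2-DMb1 and H2-DMb2 both patterns stood on the strand of the gene with 22, 23 and 23 bases between them. Only 0.0974% of 32851 promoter windows held such an arrangement on either strand, with 18 to 28 bases allowed between the patterns. Alone, ATTGG was in 37.4% of windows and ACNGATG in 9.85%, so a single match says little. The H2-Aa window held ATTGG at position -48 and ACNGATG only on the other strand, at -232, outside the stretch shown. H2-Oa held both at a wider spacing, 1 of the windows of H2-DMa held ATTGG alone and Ifi30 held neither in its 300 bases. These matches describe letters and are not evidence of binding. The H2-DMb1 and H2-DMb2 stretches share an identical run of 23 bases, and the transcripts of these neighbouring genes also share sequence, which bears on their values below.

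The values are FPKM, reads scaled to transcript length and to the mapped reads of the library, so levels can be compared between genes per length. Depth was similar throughout, at an estimated 19.25 M to 21.3 M mapped reads per library. The lowest value among the 10 genes, Ciita at 0.19 FPKM in the second KO library of CD115- CDPs, then stands for 16 to 24 reads, depending on the transcript counted. Every other gene rested on at least 84 reads in its lowest library, so counting error was small for all but Ciita.

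Trim33 itself did not separate the genotypes in these gene-level values. Its FPKM were 10.4, 10.1 and 8.78 in WT and 9.71, 11.7 and 4.8 in KO MPPs. In CD115- CDPs they were 14.3, 15.2 and 8.27 in WT against 9.64, 8.28 and 4.03 in KO, and in CLPs 12.4, 7.01 and 8.86 against 7.52, 5.60 and 7.66. WT and KO overlapped in every population, with a limma adjusted p of 0.630 in MPPs, 0.255 in CLPs and 0.528 in CD115- CDPs, or 0.0258 in the last when replicates were paired. Only exons 2 to 4 are excised, so a transcript without them can still be counted. KO below means the library labelled KO, and every direction given rests on those labels.

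Some libraries stood apart from their group before any comparison was made. The third WT library of CD115- CDPs had a summed 1833 FPKM of 9 monocyte and macrophage markers against 243 and 173 in the other WT libraries, led by Lyz2 (lysozyme) at 849 FPKM. It also held 590 FPKM of 3 plasma cell markers, against 152 and 166. Jchain alone set that sum apart, at 499.9 against 53.4 and 52.6. The other markers, Xbp1 and Sdc1, were at 64.05 to 80.4 and 22.9 to 34.3 FPKM over the WT libraries of CD115- CDPs. The third KO libraries of MPPs and of CD115- CDPs differed from KO replicates 1 and 2 in the class II genes themselves, as described below. The main results that rest on these libraries are given with and without them. Of the genes of the sort gates, Flt3 was at 240, 233 and 147 FPKM in WT and 204, 190 and 171 in KO CD115- CDPs, and Cd34 at 166, 169.8 and 219.6 against 187, 189.8 and 380, with Cd34 above Flt3 in the third libraries alone. Il7r, which encodes CD127, was higher in each CLP library (32.6 to 63.0 FPKM) than in any MPP library (1.89 to 8.41). Csf1r, which encodes the CD115 that CD115- CDPs were sorted against, was not at 0 there but at 57.0, 39.1 and 137 FPKM in WT and 11.5, 9.24 and 37.2 in KO.

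In WT cells the regulator was near the floor of the test and the chains were abundant. Ciita averaged 1.05 FPKM ± 0.0586 (SD, n = 3) in MPPs, against 0.890 ± 1.02 in CD115- CDPs and 0.827 ± 0.0473 in CLPs. Cd74 averaged 106 ± 3.90, 171 ± 75.7 and 68.4 ± 7.42 FPKM in the same order, far above the regulator in all populations. Of the classical chains H2-Ab1, the β chain of I-A, was highest at 81.9 ± 9.90, 67.9 ± 14.8 and 35.6 ± 6.75 FPKM. Its partner H2-Aa, the α chain, averaged 42.0 ± 4.58, 38.0 ± 23.8 and 21.2 ± 2.61 FPKM, and H2-Eb1, the β chain of I-E, 18.6 ± 2.12, 14.3 ± 5.60 and 8.15 ± 1.38 FPKM. The entry for the α chain of I-E, H2-Ea-ps, did not exceed 0.06 FPKM in any library, so the H2-Eb1 values describe RNA and not an assembled I-E. All 3 classical chains had their highest WT mean in MPPs and their lowest in CLPs. H2-DMa, the α chain of the H2-DM editor, was at the level of Cd74, with 99.3 ± 12.9, 124 ± 25.5 and 93.7 ± 13.7 FPKM. Together the 10 genes took between 0.0448% and 0.1615% of a library's summed FPKM, the lowest in the third KO library and the highest in the third WT library, both of CD115- CDPs.

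**Figure D1:**
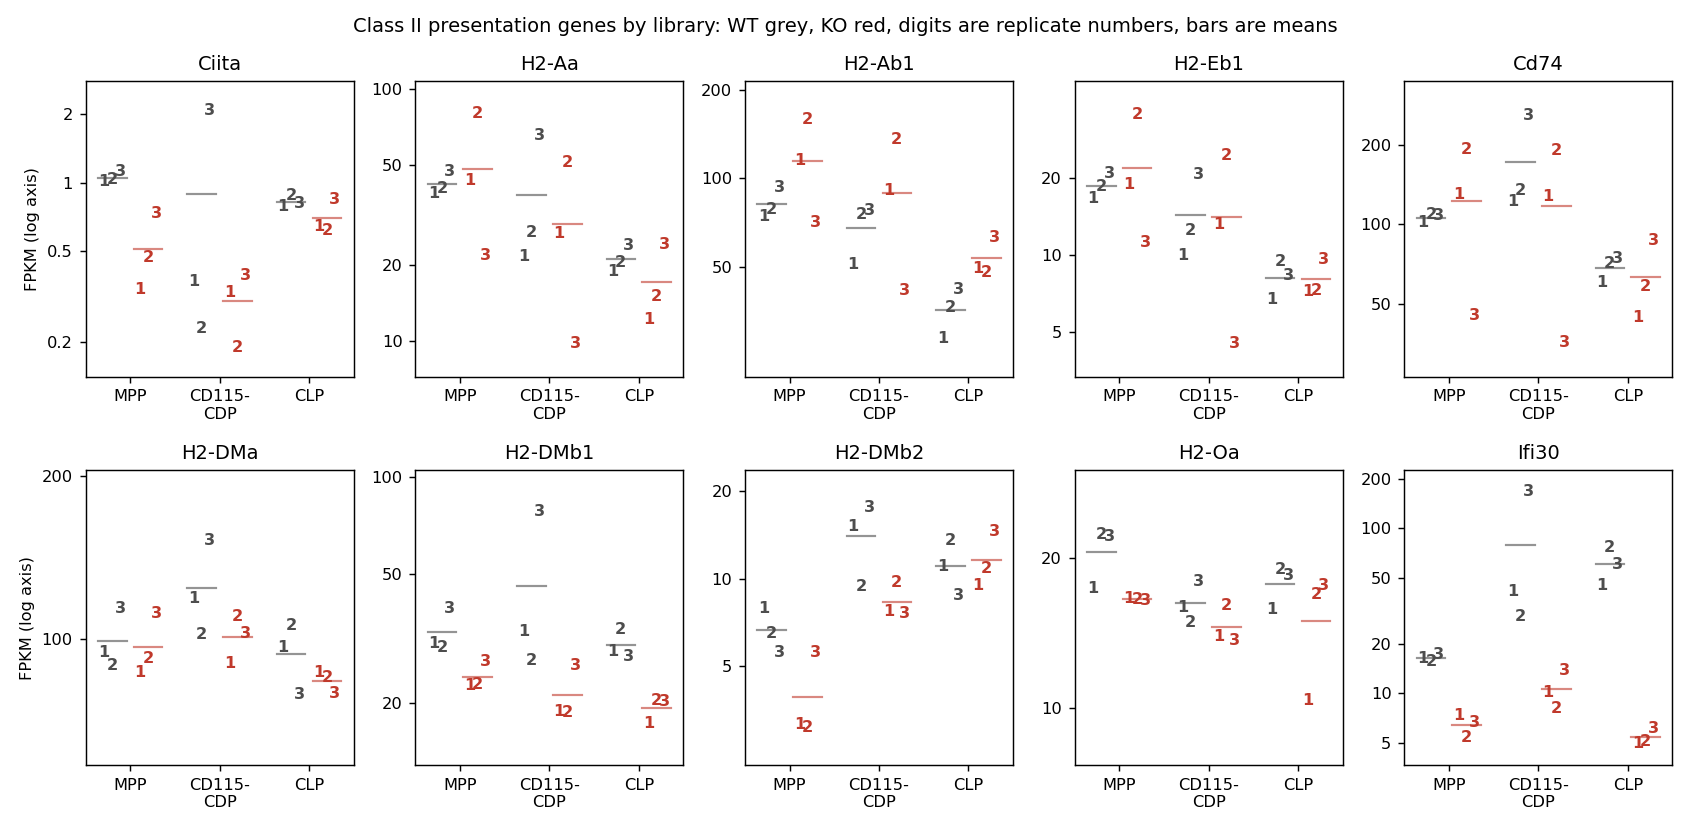
FPKM of each of the 10 genes (log axis, 1 panel per gene) in MPPs, CD115- CDPs and CLPs; each digit is a library and gives its replicate number, WT in grey and KO in red, and bars are means of 3. Ifi30 in KO lies below WT in all 3 populations, while KO libraries 2 and 3 of MPPs and CD115- CDPs sit at opposite ends for Cd74, H2-Aa, H2-Ab1 and H2-Eb1.

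The WT populations differed in Ifi30, H2-Ab1 and H2-DMb2. Ifi30 encodes GILT, a thiol reductase that opens disulfide bonds of antigens in the lysosome. It rose from 16.4 FPKM ± 0.831 in WT MPPs to 79.6 ± 76.8 in CD115- CDPs (log2 difference 1.79, SE 0.434, limma adjusted p = 0.00848) and to 60.7 ± 15.6 in CLPs (1.80, SE 0.434, adjusted p = 0.00655). Without the third WT library of CD115- CDPs the first of these differences was 1.05, with an adjusted p of 0.00396. H2-Ab1 was lower in CLPs than in MPPs (-1.19, SE 0.350, adjusted p = 0.0206), a call that was lost without MPP WT 3 (adjusted p = 0.0771), CLP WT 1 (0.0779) or CLP WT 2 (0.0514). H2-Eb1 had a similar difference (-1.11, SE 0.453) and missed the threshold at 0.0892, against 0.0441 with replicates as a block across populations. H2-DMb2 was higher in CD115- CDPs (mean 14.0 FPKM) than in MPPs (6.63) by 0.94 (adjusted p = 0.0126), just under the fold required on the log2(FPKM + 1) scale, and by 0.77 (0.0350) without CD115- CDP WT 3, but missed without MPP WT 3 (0.0627) or CD115- CDP WT 1 (0.0530). Calls needed an adjusted p of at most 0.05 and a change of at least 1 on that scale, which is 2-fold. By that rule 1 of 10 members differed between CD115- CDPs and MPPs (6.79% of all genes did), 2 of 10 between CLPs and MPPs (8.7% of all genes) and 0 of 10 between CLPs and CD115- CDPs (2.94% of all genes), where 3 had an unadjusted limma p under 0.05. H2-Ab1 missed in the last of these at an adjusted p of 0.107 and Cd74 at 0.151. For every other member neighbouring populations in the order of WT means did not pass the test. Each population was deposited as a table of its own, so population and table cannot be told apart.

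Ifi30 was lower in KO than in WT libraries, and the other members did not pass the test together in either direction. Negative log2 fold changes were found for 9 of 10 members in CD115- CDPs, 8 of 10 in CLPs and 7 of 10 in MPPs. The median over the members was -0.17 in MPPs, beside -0.11 over all genes tested. For CD115- CDPs it was -0.45 beside -0.07, and for CLPs -0.16 beside 0.01. Ifi30 was the 1 of 10 members called lower in MPPs, where 1.32% of all genes were, and again the 1 of 10 in CLPs (2.84% of all genes). In CD115- CDPs 0 of 10 were called lower by limma (0.0654% of all genes), with 2 at an unadjusted p under 0.05, and with paired replicates 1 of 10, Ifi30 (1.46%). No member was called higher, where 0.162% of all genes were in MPPs, 0.673% in CLPs and 0.0409% in CD115- CDPs. Without the 2-fold requirement 1 of 10 passed lower in MPPs (3.52% of all genes) and 2 of 10 in CLPs (8.92%), and none in CD115- CDPs (0.0654%). In the other direction 0 of 10 passed in MPPs (0.315%) and CD115- CDPs (0.0409%), and 1 of 10 in CLPs (5.41%). KO libraries all lay below WT libraries for 5 of 10 members in MPPs, where they did so for 23.3% of all genes. This held for 2 of 10 members in CLPs (18.6% of all genes) and 2 of 10 in CD115- CDPs (10.6%). They lay above all WT libraries for 1 of 10 in CLPs (15.3% of all genes) and for 0 of 10 in MPPs (6.98%) and CD115- CDPs (7.68%). In sorted bulk cells a lower share of cells that express a gene and less RNA per cell cannot be told apart.

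**Figure D2:**
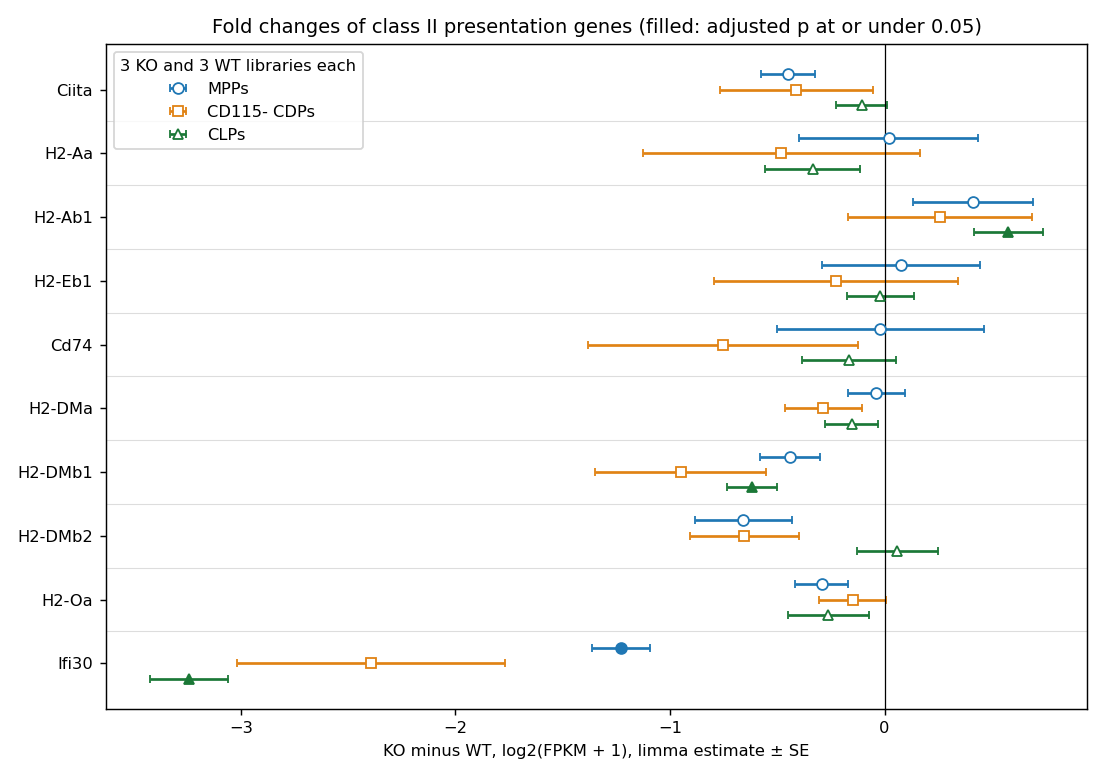
KO minus WT difference of each gene in log2(FPKM + 1), with the limma standard error as bars, for MPPs (circles), CD115- CDPs (squares) and CLPs (triangles), 3 libraries per genotype; filled symbols have an adjusted p of at most 0.05. Ifi30 lies furthest to the left in each population, at -1.23, -2.39 and -3.24, and H2-Ab1 in CLPs is the only filled symbol to the right of 0.

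Ifi30 fell in MPPs and CLPs. In MPPs it was at 16.3, 15.6 and 17.2 FPKM in WT and at 7.33, 5.41 and 6.63 in KO. Every KO library was below every WT library, a 2.53-fold difference of means (log2 fold change -1.23, SE 0.135, limma adjusted p = 0.00854). With only 2 WT libraries the change stayed between -1.19 and -1.26, but the adjusted p rose to 0.0820 without WT 1, 0.0693 without WT 2 and 0.0748 without WT 3. In CLPs, WT libraries had 45.4, 76.6 and 60.2 FPKM and KO libraries 4.95, 5.14 and 6.16. That 11.2-fold difference (-3.24, SE 0.182, adjusted p = 1.4e-05) was called under each of the alternatives run. In CD115- CDPs, WT libraries had 41.4, 29.4 and 168 FPKM and KO libraries 10.1, 8.08 and 13.8. The genotypes again did not overlap, but the spread of WT, set by WT 3, gave an adjusted p of 0.338 (-2.39, SE 0.626). With paired replicates it was 0.0179, without WT 3 it was 0.190 (-1.65), and without the third library of both genotypes the change was -1.83 with an adjusted p of 0.00296. KO levels of Ifi30 were thus between 4.95 and 13.8 FPKM in all 9 KO libraries, while WT levels ranged from 15.6 to 168. The study names Ifi30 and Ciita in gene lists chosen from these same libraries, so their direction here is not independent evidence.

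Whether the KO effect differed between populations was tested by an interaction of population and genotype. No member passed in limma (2.45% of all genes did), and 1 had an unadjusted p under 0.05. For Ifi30 the change in CLPs exceeded that in MPPs by -2.01 on the log2 scale (SE 0.614), with an interaction p of 0.0170 unadjusted and 0.197 adjusted. With the replicate block 1 member, Ifi30, passed at 0.0281, where 8.67% of all genes passed, and without the third WT library of CD115- CDPs it passed at 0.00176. KO means of Ifi30 were 6.46 FPKM ± 0.972 in MPPs and 5.42 ± 0.651 in CLPs, against WT means of 16.4 and 60.7.

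Ciita was low and showed no called change. In MPPs it was at 1.01, 1.03 and 1.12 FPKM in WT and 0.34, 0.47 and 0.73 in KO. KO was below WT in each library, with a log2 fold change of -0.45 (SE 0.126, adjusted p = 0.106) on a scale where adding 1 to each FPKM understates a change at such low levels. In CD115- CDPs it was at 0.37, 0.23 and 2.07 in WT and 0.33, 0.19 and 0.39 in KO, where only the third WT library stood out. In CLPs it was at 0.79, 0.88 and 0.81 in WT and 0.64, 0.62 and 0.84 in KO, and the genotypes overlapped.

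In MPPs and CD115- CDPs the classical chains and the invariant chain varied more among KO libraries than between genotypes. Cd74 in MPPs was at 101, 109 and 108 FPKM in WT and at 130, 193 and 45.2 in KO. WT libraries agreed within a factor of 1.07 and KO libraries spanned a factor of 4.26, with KO 2 and KO 1 above and KO 3 below every WT library. The mean change was -0.02 (SE 0.482, adjusted p = 0.982), and without KO 3 it was 0.58 (adjusted p = 0.0236), in a fit in which 54.3% of all genes passed. H2-Aa in MPPs was at 38.5, 40.4 and 47.2 FPKM in WT and 43.3, 79.6 and 22.0 in KO, with KO 1 inside the WT range. H2-Eb1 in MPPs was at 16.6, 18.5 and 20.8 in WT and 18.9, 35.3 and 11.2 in KO. H2-Ab1 in MPPs was at 74.2, 78.5 and 93.1 in WT and 115, 159 and 70.8 in KO. For all 4 genes KO 2 was highest and KO 3 lowest, and KO 3 was below every WT library.

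The order was the same in CD115- CDPs. Cd74 there was at 121, 134 and 258 FPKM in WT and at 127, 190 and 35.6 in KO. H2-Aa was at 21.6, 27.1 and 65.3 in WT and 26.7, 51.0 and 9.78 in KO. H2-Ab1 was at 50.9, 75.4 and 77.4 in WT and 90.8, 136 and 41.5 in KO. In these and in H2-Eb1 (9.93, 12.4 and 20.6 against 13.1, 24.5 and 4.52), KO 2 was again highest and KO 3 lowest. KO 2 exceeded KO 3 by a factor of 5.34 for Cd74, 5.22 for H2-Aa, 3.27 for H2-Ab1 and 5.41 for H2-Eb1. None of the 4 passed the test (adjusted p from 0.734 to 0.936), and leaving out KO 3 turned the estimate of H2-Aa from -0.48 to 0.12 and of H2-Eb1 from -0.23 to 0.37. The labels do not say whether libraries of the same number in different populations came from the same mice. Across 12421 genes, deviations from the group mean of KO libraries of the same number in MPPs and CD115- CDPs correlated at 0.352, 0.575 and 0.743 for numbers 1, 2 and 3, as a description over genes that are not independent. KO 1 of MPPs with KO 2 of CD115- CDPs gave 0.480 and KO 2 with KO 1 gave 0.609, so that of the MPP libraries only KO 3 correlated best with its own number, and of the CD115- CDP libraries KO 2 and KO 3.

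In CLPs the KO libraries did not keep that order. Cd74 was at 60.0, 71.0 and 74.1 FPKM in WT and at 44.1, 58.2 and 86.8 in KO, with KO 3 now highest. H2-Aa was at 18.9, 20.5 and 24.02 against 12.2, 15.1 and 24.2. H2-Eb1 was at 6.71, 9.45 and 8.29 against 7.22, 7.26 and 9.59. The genotypes overlapped for all 3 (adjusted p from 0.356 to 0.950).

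**Figure D3:**
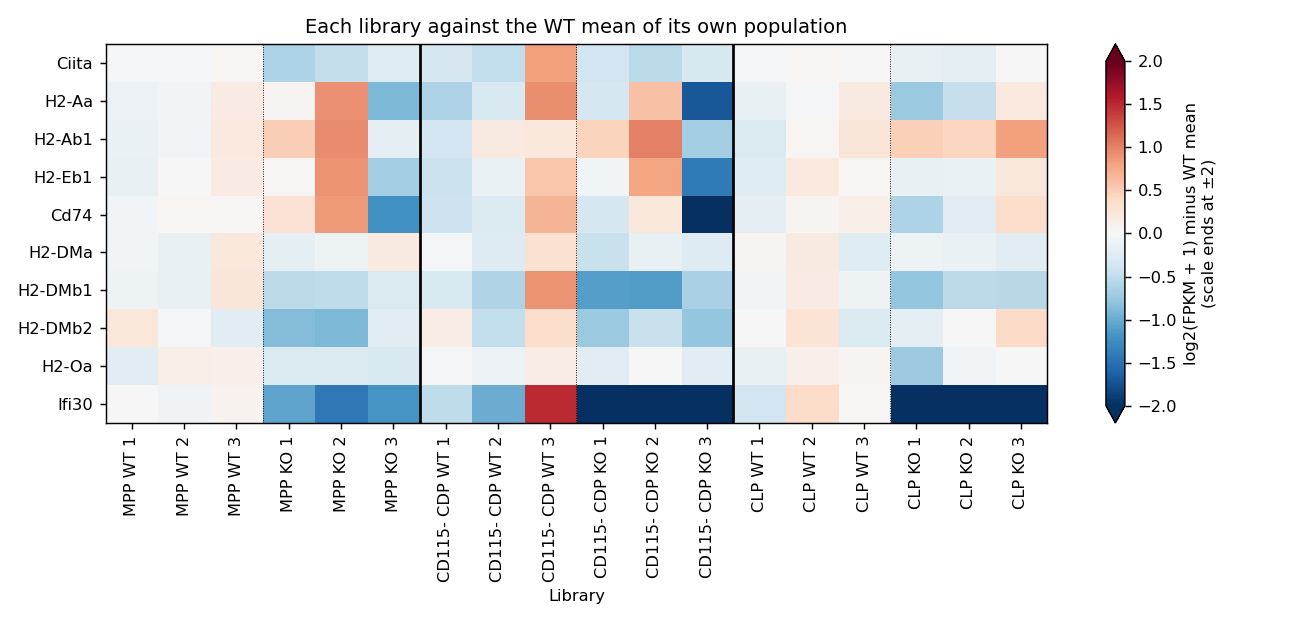
Each library (columns) against the WT mean of its own population, as the difference in log2(FPKM + 1), for the 10 genes (rows); red is above and blue below that mean, and the scale ends at ±2. In MPPs and CD115- CDPs the columns KO 2 and KO 3 have opposite colours for H2-Aa, H2-Eb1 and Cd74, while the row of Ifi30 is blue in all 9 KO columns.

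H2-Ab1 stood apart from the other classical genes. In CLPs it was at 28.5, 36.3 and 41.9 FPKM in WT and at 49.4, 47.7 and 62.8 in KO, so that every KO library was above every WT library. The log2 fold change of 0.58 (SE 0.161) had an adjusted p of 0.0480, and 0.00781 with paired replicates. It did not hold without WT 1 (adjusted p = 0.0701), WT 2 (0.121), KO 1 (0.0801), KO 2 (0.0692) or KO 3 (0.152), or under median ratio scaling (0.0678), and held at 0.0394 without WT 3. The estimate for H2-Ab1 was also positive in MPPs (0.41, SE 0.278, adjusted p = 0.366) and in CD115- CDPs (0.26, SE 0.429, adjusted p = 0.891).

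The ratio of H2-Ab1 to its partner chain removes what the chains shared; it was examined after the values were seen and is a description without a test. H2-Ab1 over H2-Aa in MPPs was 1.93, 1.94 and 1.97 in WT and 2.64, 1.99 and 3.22 in KO. In CLPs it was 1.51, 1.77 and 1.75 in WT and 4.06, 3.16 and 2.60 in KO. KO libraries were above all WT libraries in both, although KO 2 of MPPs was barely so. In CD115- CDPs the ratio was 2.35, 2.78 and 1.19 in WT and 3.40, 2.66 and 4.24 in KO, with KO 2 inside the WT range. Relative to Cd74, H2-Ab1 was at 0.419, 0.562 and 0.300 in WT CD115- CDPs and at 0.714, 0.714 and 1.16 in KO, which did not overlap. In MPPs that ratio overlapped, at 0.731, 0.723 and 0.864 in WT and 0.881, 0.824 and 1.57 in KO. H2-Aa over H2-Eb1 overlapped in MPPs (2.32, 2.19 and 2.27 in WT and 2.30, 2.26 and 1.97 in KO) and in CLPs, and was lower in every KO library of CD115- CDPs (2.18, 2.18 and 3.16 against 2.04, 2.08 and 2.16). The libraries with the least class II RNA in MPPs and CD115- CDPs, KO 3 of each, had the highest ratio of H2-Ab1 to H2-Aa.

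**Figure D4:**
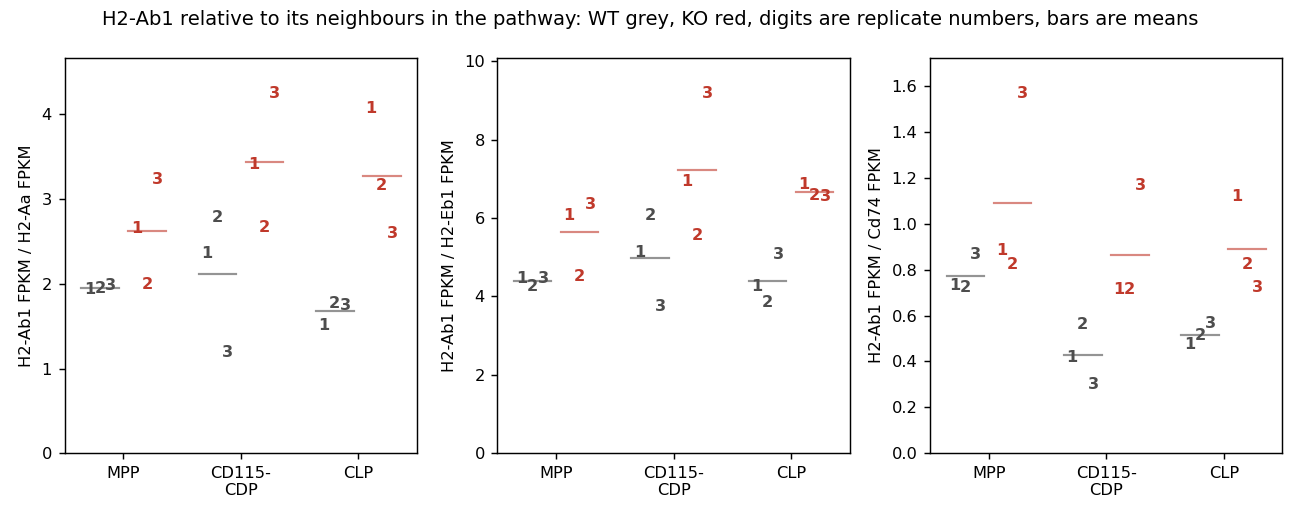
FPKM of H2-Ab1 divided by that of H2-Aa (left), H2-Eb1 (middle) and Cd74 (right) in each library, on linear axes from 0; digits give the replicate number, WT in grey and KO in red, and bars are means of 3. In CLPs all KO libraries lie above all WT libraries in each panel, for example 2.60 to 4.06 against 1.51 to 1.77 over H2-Aa.

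Among the peptide editors, H2-DMb1 changed. H2-DMb1, a β chain of H2-DM, was at 28.9, 33.7 and 27.8 FPKM in WT CLPs and at 17.2, 20.4 and 20.2 in KO. The genotypes did not overlap, with a log2 fold change of -0.62 (SE 0.116, adjusted p = 0.00948). It passed without each library in turn and missed at 0.0650 without the third library of both genotypes. In MPPs it was at 30.5, 29.7 and 39.2 in WT and 22.6, 22.7 and 26.8 in KO (-0.44, SE 0.140, adjusted p = 0.130). In CD115- CDPs it was at 33.1, 27.0 and 78.3 in WT and 18.7, 18.6 and 26.1 in KO. That change of -0.95 (SE 0.399) had an adjusted p of 0.478, of 0.0388 with paired replicates, and was -0.50 with 0.464 without WT 3. H2-DMb1 was thus below WT in all 9 KO libraries, within each population.

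H2-DMb2, the second β chain gene, followed only in part. In MPPs it was at 7.86, 6.47 and 5.56 FPKM in WT and 3.14, 3.07 and 5.55 in KO (-0.66, SE 0.226, adjusted p = 0.152), with KO 3 next to WT. In CD115- CDPs it was at 15.1, 9.36 and 17.5 against 7.71, 9.68 and 7.55 (-0.65, SE 0.256, adjusted p = 0.457). In CLPs it was at 11, 13.5 and 8.76 against 9.43, 10.9 and 14.6, and its estimate was 0.06 (SE 0.189, adjusted p = 0.867). H2-DMb1 and H2-DMb2 share 369 stretches of 50 bases, the length of a read, which make up 27.2% of those of H2-DMb1 and 26.8% of those of H2-DMb2. Reads from these were divided between the genes by the authors' counting, so their separate values are uncertain.

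H2-DMa and H2-Oa moved little. H2-DMa was between 78.9 and 152 FPKM in WT and between 79.3 and 112 in KO over all populations, and its log2 fold changes were -0.04, -0.29 and -0.15 (adjusted p from 0.444 to 0.868). H2-Oa, the α chain of the H2-DO inhibitor, was at 17.4, 22.3 and 22.1 FPKM in WT MPPs and 16.6, 16.5 and 16.4 in KO. These did not overlap, yet the change of -0.29 (SE 0.124) missed the threshold at 0.208. In the other populations H2-Oa overlapped between genotypes. Of its 50-base stretches 21.7% also occur in the neighbouring BC051537, and the library kit did not mark strand, so part of the H2-Oa value is uncertain.

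Of the 10 members, 7 formed 2 sets by how they varied around their group means, which is a description over 18 libraries of 6 groups, and H2-DMa, H2-DMb2 and H2-Oa belonged clearly to neither. Cd74, H2-Aa, H2-Ab1 and H2-Eb1 correlated with each other at r from 0.915 to 0.967. Ciita, Ifi30 and H2-DMb1 correlated at 0.921 to 0.933, while Ciita and Cd74 had an r of 0.127. The first set did not depend on the libraries that stood apart: without replicate 3 of MPPs and CD115- CDPs its correlations were 0.794 to 0.964, over 14 libraries. The second set rested largely on 1 library: without the third WT library of CD115- CDPs, Ciita and Ifi30 correlated at 0.498, Ciita and H2-DMb1 at 0.664 and H2-DMb1 and Ifi30 at 0.692. Within MPPs Ciita and Ifi30 had an r of -0.105, Ciita and H2-DMb1 0.665 and H2-DMb1 and Ifi30 0.339, against 0.481 to 0.646 within CLPs and 0.971 to 0.991 within CD115- CDPs. Ciita and Cd74 had no steady relation: r was -0.544 without the third WT library of CD115- CDPs, 0.329 without replicate 3 of MPPs and CD115- CDPs, and -0.781, 0.288 and 0.837 within MPPs, CD115- CDPs and CLPs, over 6 libraries each. The KO 2 library of MPPs, which had the most Cd74, had less than 0.5 FPKM of Ciita, and KO 3, which had the least Cd74, had the most Ciita of the KO libraries.

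Outside the 10 genes, several lysosomal proteases of the pathway fell. Of 12 listed genes of the rest of the pathway, 10, 11 and 11 passed the filter on low values in MPPs, CD115- CDPs and CLPs, and 1, 1 and 4 of them were called lower, beside 1.32%, 0.0654% and 2.84% of all genes, and none higher. Ctsd, which encodes cathepsin D, was not called in any population (-0.02, 0.12 and -0.25). Lgmn, which encodes the protease legumain, averaged 6.50 FPKM in WT and 9.49 in KO MPPs (0.48, adjusted p = 0.0860), with every KO above every WT library. In the other populations every KO library was below every WT library for Lgmn, with means of 31.1 and 21.0 FPKM in CD115- CDPs (-0.61, adjusted p = 0.512) and 32.3 and 23.5 in CLPs (-0.45, adjusted p = 0.0641, and 0.0158 with paired replicates). Without the 2-fold requirement H2-Eb2, a class II β chain gene, passed higher in CLPs, from 1.65 to 2.99 FPKM (0.59, adjusted p = 0.0222), but not without WT 2, WT 3, KO 1 or KO 2 (0.0652 to 0.0898). Ctsh, an aminopeptidase of the endosome, was at 109, 125 and 110 FPKM in WT CLPs and at 2.76, 4.15 and 3.58 in KO (-4.70, SE 0.133, adjusted p = 8.3e-07). It was also called in MPPs (-1.30, adjusted p = 0.00617, and 0.0567 to 0.0615 without any 1 of the WT libraries) and, with paired replicates only, in CD115- CDPs (-2.66, adjusted p = 0.142, against 0.00267 when paired and 0.139 without WT 3). Ctsb, which encodes cathepsin B, was at 133, 108 and 122 FPKM in WT CD115- CDPs and at 48.8, 50.8 and 51.2 in KO (-1.25, SE 0.127, adjusted p = 0.0401). The estimate stayed between -1.18 and -1.32 without each library in turn, but the call was lost each time, at adjusted p from 0.103 to 0.346. In CLPs Ctsb changed by -2.59 (adjusted p = 1.6e-06). Cathepsins S and L, which act on the invariant chain, fell in CLPs: Ctss by -1.12 (adjusted p = 0.00101) and Ctsl by -1.94 (adjusted p = 7.0e-05). In CLPs, then, Ifi30 and 4 cathepsin genes were lower by more than 1 on the log2(FPKM + 1) scale, while Cd74, the substrate of some of them, was not called.

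The DNA-binding complex with which CIITA works showed no call in any population. Its 7 genes, of RFX, CREB and NF-Y, had median log2 fold changes of -0.17, -0.20 and -0.25 in MPPs, CD115- CDPs and CLPs, and 3, 1 and 4 of them had an unadjusted limma p under 0.05, beside 24.2%, 10.5% and 29.6% of all genes. Nfya, a subunit of NF-Y, was at 56.6, 57.7 and 55.0 FPKM in WT MPPs and at 48.5, 41.1 and 50.5 in KO (-0.27, adjusted p = 0.173). Nfyc was at 27.9, 27.8 and 29.5 against 27.7, 31.0 and 29.9 (0.05, adjusted p = 0.713). Without the 2-fold requirement Rfxap, an RFX subunit, passed in CLPs (-0.55, adjusted p = 0.0125), but not without WT 2 (0.0576), KO 2 (0.0609) or KO 3 (0.0575). In CD115- CDPs Nfya (-0.54) and Creb1 (-0.51) passed with paired replicates only, at 0.0259 and 0.0466, where 5.56% of all genes passed lower.

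Among regulators known to act on Ciita, Irf8 was called lower in CLPs. Irf8, a transcription factor of the DC lineage, was at 1097, 1132 and 992 FPKM in WT CLPs and 190, 151 and 147 in KO (-2.72, SE 0.130, adjusted p = 6.3e-06). In MPPs it was at 79.4, 73.6 and 77.2 against 18.4, 17.8 and 50.4 (-1.55, SE 0.377, adjusted p = 0.0774), with KO 3 closest to WT, and without KO 3 the change was -2.02 (adjusted p = 8.2e-05, where 54.3% of all genes passed). In CD115- CDPs the estimate for Irf8 was -1.75 (adjusted p = 0.408, and 0.00780 with paired replicates), and -1.32 (0.462) without WT 3.

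The MHC class I genes gave no call among 12 in any population, with median log2 fold changes of -0.11, 0.13 and 0.02, and 0, 0 and 4 had an unadjusted limma p under 0.05, against those same shares of all genes. B2m, the light chain of class I, was at 957, 933 and 993 FPKM in WT CLPs and at 935, 1092 and 1088 in KO. H2-K1, a class I heavy chain, averaged 1081, 693 and 825 FPKM in WT MPPs, CD115- CDPs and CLPs, and 988, 819 and 826 in KO. Neither passed the test in any population (adjusted p from 0.330 to 0.979). Without the 2-fold requirement, in CLPs Tapbp, the tapasin gene, passed lower (-0.55, adjusted p = 0.0251) and Erap1, a peptide-trimming aminopeptidase, higher (0.60, adjusted p = 0.0250). Tapbp missed without WT 2, KO 2 or KO 3 (0.0751 to 0.0949), and Erap1 without any 1 library but WT 1 (0.0679 to 0.0894). Costimulatory genes followed the order of the classical chains in part. Cd86 in MPPs was at 2.37, 2.46 and 2.48 FPKM in WT and at 4.10, 7.60 and 1.72 in KO, and Cd80 at 0.12, 0.23 and 0.17 against 1.18, 1.68 and 0.00. Cd40, too low to be tested there, did not follow, at 0.22, 0.25 and 0.26 in WT and 0.00, 0.00 and 0.03 in KO. In KO MPPs Cd86 and Cd80 were highest in KO 2 and lowest in KO 3, as Cd74 was. In CLPs, where no such order was seen for the class II chains, Cd86 was at 1.57, 1.17 and 0.97 in WT and 2.23, 3.05 and 2.91 in KO (0.74, SE 0.152, adjusted p = 0.0139), a pass that was lost without WT 2, WT 3, KO 2 or KO 3 (adjusted p from 0.0506 to 0.0600).

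Markers of other cell types moved along with some of these results, and their part in them was not tested. The 9 conventional DC markers summed to 21.6, 23.8 and 20.8 FPKM in WT MPPs and to 44.9, 38.8 and 19.3 in KO, and to 84.3, 118 and 98.9 against 82.6, 93.4 and 17.6 in CD115- CDPs. KO 3 was thus lowest for them as for Cd74. Id2 was the most abundant of them in these populations, and defining genes went different ways. Cd209a was at 0 in KO 1 and KO 2 of MPPs and in all KO libraries of CD115- CDPs, whereas Zbtb46 was at 3.96, 4.53 and 0.16 FPKM in KO MPPs against 0.38, 1.16 and 0.22 in WT, and at 5.36, 7.16 and 0.04 against 1.76, 5.04 and 1.40 in CD115- CDPs. In CLPs the same markers summed to 90.4, 104 and 87.6 in WT and 25.9, 29.1 and 35.3 in KO, most of the WT sum being Itgax, which encodes CD11c, at 61.0, 69.7 and 54.8 FPKM against 5.36, 5.92 and 7.47. The monocyte and macrophage markers summed to 543, 554 and 562 FPKM in WT MPPs against 239, 165 and 211 in KO, with Lyz2 highest, and to 256, 337 and 273 against 66.6, 108 and 101 in CLPs. In CLPs Ly6c2 led in WT, at 137, 172 and 174 FPKM against 3.37, 7.23 and 10.2 in KO, whereas Lyz2 overlapped, at 51.1, 88.2 and 48.5 against 47.3, 81.2 and 71.8. In CD115- CDPs they summed to 243, 173 and 1833 in WT and 124, 107 and 296 in KO. All KO libraries were below all WT libraries for these sums in MPPs and CLPs, as for Ifi30, but not in CD115- CDPs, where KO 3 was above WT 1 and WT 2 and where WT 3 had the highest sum and the most Ifi30.

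Plasmacytoid DC markers were lower in sum in all KO than in all WT libraries of each population, as Ifi30 was. Over 9 genes they summed to 1859, 1876 and 2115 FPKM in WT CLPs and to 419, 434 and 420 in KO, with Ly6d highest and Klk1 at 0 in all KO libraries. In CD115- CDPs they summed to 921, 727 and 526 against 378, 454 and 206, and in MPPs to 201, 194 and 216 against 178, 179 and 174. WT 3 of CD115- CDPs, with the most Ifi30, had the lowest WT sum, and in MPPs single markers did not all follow, Tcf4 averaging 18.8 FPKM in WT and 19.6 in KO and Ly6d 13.9 and 14.0. B cell markers, of 8 listed genes, summed to 225, 338 and 415 FPKM in WT CLPs and 179, 285 and 293 in KO, led by Cd79a, and the genotypes overlapped. Ms4a1, a gene of mature B cells, was near 0 in WT (0.03, 0.03 and 0.20) and at 0 in KO CLPs. Members went different ways in CLPs. Every KO library was below every WT library for Cd22 (0.67 to 1.13 against 7.05 to 10.1) and Blk (25.1 to 43.8 against 45.75 to 60.9). Ebf1 was above (17.7 to 26.8 against 12.05 to 16.7), and Pax5 averaged 18.9 in WT and 20.2 in KO. In CD115- CDPs the B cell markers summed to 89.5, 110 and 60.5 against 136, 105 and 34.9, again lowest in KO 3. The 4 pro-B markers, led by Vpreb1, summed there to 19.95, 38.7 and 3.17 in WT and 71.5, 43.7 and 6.68 in KO. T cell markers, 4 genes, summed to 13.4 FPKM at most, in WT 3 of CD115- CDPs. Like Ifi30 these sums were lower in all KO than in all WT libraries of each population, at 5.09, 4.37 and 5.13 against 1.69, 0.98 and 1.91 in MPPs. Cd4 made up most of the WT sum in MPPs (3.51, 3.24 and 3.70) and in CLPs (8.82, 5.42 and 5.59 of 9.50, 6.07 and 6.59). In CLPs Cd3d (0.25 to 0.51 in KO against 0.33 to 0.52) and Cd3g overlapped, while Cd3e was at 0 in KO against 0.18 to 0.22. The same held for the plasma cell markers in CLPs (128, 119 and 122 against 62.9, 59.1 and 59.2) and CD115- CDPs (152, 166 and 590 against 82.7, 85.7 and 71.4), and in MPPs for the B cell (36.8, 37.5 and 40.6 against 22.5, 14.6 and 30.1) and pro-B markers.

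Outside the 10 genes, of which H2-Aa was nearest to Cd74 (r = 0.882), the genes whose pattern over the 18 libraries was most like that of Cd74, by Pearson's r of log2(FPKM + 1) among 12421 genes, were 4930523C07Rik (0.860), Lilrb4a (0.839), Sat1 (0.836), R3hcc1l (0.833) and Stx11 (0.833). Lilrb4a encodes an inhibitory receptor of myeloid cells and Sat1 an enzyme of polyamine breakdown. For Ciita they were Ampd3 (0.927), Stard8 (0.903), Zfp710 (0.903), C130050O18Rik (0.886) and Slc35a5 (0.885). Without the third WT library of CD115- CDPs, in which Ciita was highest, these 5 values were between 0.854 and 0.938 over 17 libraries.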

How the data were processed

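The 10 genes, the gene lists, the tests and the alternatives were chosen with earlier results of these data known. Per the labels and the paper's methods, the authors sequenced poly-A RNA as single-end 50-base reads on the BGISEQ-500, filtered them with SOAPnuke, aligned with Bowtie2 v2.2.5 (HISAT2 v2.0.4 and mm10 are also named) and estimated expression by RSEM v1.2.12. The authors deposited FPKM for each gene, with 2 decimals. Their own tests need read counts, which were not used here.

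Genes averaging 0.5 FPKM or more were tested on log2(FPKM + 1) with limma 3.58.1 (lmFit, eBayes with trend) in R 4.3.3, two-sided, with Benjamini-Hochberg adjustment over all genes tested. KO was compared with WT within each population; contrasts between WT populations and the interaction used all 18 libraries. Called genes had an adjusted p of at most 0.05 and a log2 fold change of at least 1 in size. A fold change on this scale understates that of low genes. The fits were tested on simulated data.

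WT and KO libraries share the replicate numbers 1 to 3 in the labels. Deviations of same-numbered libraries correlated at 0.437 to 0.79 in CD115- CDPs, 0.131 to 0.4 in CLPs and 0.038 to 0.482 in MPPs. For different numbers r was -0.784 to 0.663, -0.399 to 0.234 and -0.492 to 0.262. Some libraries were closer to another number: KO 1 of CD115- CDPs to WT 2 (0.663, against 0.437 for WT 1), WT 3 of CLPs to KO 2 (0.234 against 0.131) and KO 1 of MPPs to WT 2 (0.262 against 0.038). Pairing by number is thus not established in any population, and results with paired replicates assume it.

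All 10 members and Trim33 were named, and from each list the genes called in a population, else the 2 with the highest mean, plus the 5 genes most like Cd74 and Ciita; other names were chosen after their values were seen. Depth was estimated from the steps of FPKM times transcript length (GENCODE vM21). Promoters and positions came from RefSeq (GRCm38.p6), whose build matches mm10. Alternatives were a pseudocount of 0.1, other filters, TPM, median ratio or quantile scaling, no trend, no minimum fold, the replicate block and leaving out libraries. Some results for listed genes outside the 10 are not reported here.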

Additional observations from a re-analysis of the deposited data

How the results depend on the processing

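The KO minus WT estimate of Ifi30 was negative in all populations under every alternative run. In MPPs the number of members called lower ranged from 0 to 1 when a library was left out, 0 without WT 1, WT 2 or WT 3. In CD115- CDPs it was 1 with the replicate block (pairing by number) and 1 without replicate 3 of both genotypes, an alternative chosen after seeing the data, against 0. In CLPs no minimum fold change gave 2 lower and 1 higher. The interaction had 1 member passing, Ifi30, with the block, without CD115- CDP WT 3 (range 0 to 1) and without replicate 3 of both genotypes of CD115- CDPs. Between WT CD115- CDPs and MPPs 2 members were called with a pseudocount of 0.1, TPM, median ratio or quantile scaling, no minimum fold change, and over left-out libraries 1 to 2. Between WT CLPs and MPPs it was 1 to 3 over left-out libraries, and 1 without replicate 3 of both genotypes of MPPs. A block within populations leaves no contrast between them and was not run there; across populations it changed H2-Eb1 only, as given above. In MPPs the block left Ifi30 called (limma adjusted p = 0.0252).

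Median ratio scaling moved the median of all genes in MPPs from -0.11 to -0.01, and TPM that in CD115- CDPs from -0.07 to -0.19. Between WT populations median ratio scaling moved it from -0.10 to 0.01 for CD115- CDPs against MPPs, and TPM from 0.08 to 0.19 for CLPs against CD115- CDPs and from -0.05 to 0.07 for CLPs against MPPs. Main estimates that changed sign were between -0.75 and 0.26. With 1 library left out they ranged, in MPPs, from -0.46 to 0.58 for Cd74, -0.43 to 0.48 for H2-Aa, -0.33 to 0.46 for H2-Eb1 and -0.14 to 0.064 for H2-DMa; in CD115- CDPs, from -1.01 to 0.12 for H2-Aa, -0.12 to 0.73 for H2-Ab1 and -0.74 to 0.37 for H2-Eb1; and in CLPs, from -0.42 to 0.061 for Cd74, -0.14 to 0.082 for H2-Eb1 and -0.10 to 0.20 for H2-DMb2. In MPPs Cd74 (-0.02) became 0.10 with median ratio scaling and 0.21 as a ratio of mean FPKM, H2-Aa (0.02) became -0.0001 as TPM and H2-DMa (-0.04) 0.082 with median ratio scaling; in CLPs H2-Eb1 (-0.02) became 0.018 with quantile scaling. Without replicate 3 of both genotypes Cd74 was 0.59 in MPPs, Cd74, H2-Aa and H2-Eb1 were 0.28, 0.59 and 0.65 in CD115- CDPs, and H2-DMb2 was -0.25 in CLPs. Of these reversed values 1 passed the test, Cd74 in MPPs without KO 3 (0.58, adjusted p = 0.0236). The cause was not tested. Depth limits Ciita most, and 3 libraries per genotype limit every test.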
